A study of Mus musculus with 20 samples.

Results

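Ifitm1, Ifitm2 and Ifitm3 encode interferon-induced transmembrane proteins and lie side by side on mouse chromosome 7. They are 3 of the 23361 entries in the deposited count tables of a male and a female mouse embryonic stem cell line that were converted to epiblast stem cells, found by an exact match of the gene symbol, and all 3 passed the filter on low counts in both lines. They were chosen by their expression over the stages of these same libraries, so their levels and changes are given here as a description with no test. In the male line E14, Ifitm1 averaged 3.606 CPM (counts scaled to the library's total) at day 4, against 249.3 CPM in 2i medium at day 0, whereas in the female line PGK it averaged 51.07 CPM at day 4 and 47.27 CPM at day 0. Ifitm3 had a smaller difference between the lines at day 4. For Ifitm2 the log2 fold change between the lines lay between -0.44 and 0.09 at every stage, with an SE of 0.42 at each.

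Proteins of this family are short, span the membrane, sit in the plasma membrane and in endosomes, and hinder the entry of enveloped viruses into the cytosol. Interferon raises their transcription. In the mouse embryo Ifitm3, also named fragilis, and Ifitm1, also named fragilis2, are known from the epiblast and from nascent primordial germ cells, where BMP signals from the neighbouring extraembryonic tissue induce Ifitm3, and mice lacking the gene cluster are viable and form germ cells.

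The 20 libraries of stranded polyadenylated RNA fall into 10 groups of 2, and each group holds 1 library from each of 2 differentiation experiments that the labels call diff2 and diff3. PGK is female and E14 is male, so the sex and the line cannot be told apart. In each line the d0 group was grown in 2i medium, in which inhibitors hold embryonic stem cells in a naive state. All later groups were plated on fibronectin in N2B27 medium with activin A and Fgf2, were split with Accutase at day 4 and then every 2 days, and were taken as d4, d10, d19_23 (days 23 and 21 in PGK, 21 and 19 in E14) and d27_30 (day 29 in both PGK experiments, days 27 and 30 in E14). Libraries held 2020254 to 26936415 counts. The diff3 libraries of E14 at d0 and d4 were the shallow ones, with 3376500 and 2020254 counts, and the other 18 held at least 11847559. In the shallow libraries a count of 3 corresponds to 0.888 CPM at d0 and 1.48 CPM at d4. Such floors, like all counts of reads here, cover counting error only, and in these bulk cultures fewer cells that express a gene and less RNA per cell cannot be told apart.

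Markers matched the labelled stages within each line. The 6 naive markers (Klf4, Esrrb, Tfcp2l1, Zfp42, Tbx3 and Nr0b1) summed to 91.6 to 200 CPM at d4 and 3110 to 3980 CPM at d0 in PGK. In E14 they summed to 23.3 to 25.3 CPM at d4 and 3890 to 5000 CPM at d0. All 6 fell in both lines by edgeR's quasi-likelihood test with Benjamini-Hochberg adjustment over all genes, and of the 5 primed markers (Fgf5, Otx2, Pou3f1, Dnmt3b and Pim2) 4 rose in PGK and 5 in E14. In PGK over E14 at d4, the naive markers had a median log2 fold change of 2.11, beside 0.04 over all genes. Of the 6, edgeR called 1 higher in PGK, against 0.14% of all genes. This was Esrrb, with 54.6 ± 39.6 CPM in PGK and 3.11 ± 3.0 CPM in E14 (edgeR adjusted p = 0.0157). The call did not hold in every alternative fit.

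On GRCm38 with the GENCODE annotation, Ifitm2 (ENSMUSG00000060591) lies at chr7:140954837-140955987 on the minus strand, Ifitm1 (ENSMUSG00000025491) at chr7:140967221-140969825 on the plus strand and Ifitm3 (ENSMUSG00000025492) at chr7:141009586-141010770 on the minus strand. The 3 genes span 55.9 kb. Their annotated proteins have 106 residues for Ifitm1, 144 for Ifitm2 and 137 for Ifitm3. The stretch around each RefSeq transcription start (GRCm38.p6), with 250 bases before and 30 after it on the gene's own strand, is printed because the 3 genes differ in the interferon-stimulated response element, the motif GAAANNGAAA known from promoters of interferon-induced genes. Capitals mark its matches, in a search of both strands. The Ifitm1 stretch is chr7:140967826-140968105 on the plus strand, the Ifitm2 stretch chr7:140955932-140956211 on the minus strand and the Ifitm3 stretch chr7:141010715-141010994 on the minus strand.
Ifitm1: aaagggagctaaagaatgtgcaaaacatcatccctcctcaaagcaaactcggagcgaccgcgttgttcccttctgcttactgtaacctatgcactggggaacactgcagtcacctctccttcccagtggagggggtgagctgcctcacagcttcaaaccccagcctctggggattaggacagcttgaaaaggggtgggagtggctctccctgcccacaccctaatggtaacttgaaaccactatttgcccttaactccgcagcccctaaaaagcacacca
Ifitm2: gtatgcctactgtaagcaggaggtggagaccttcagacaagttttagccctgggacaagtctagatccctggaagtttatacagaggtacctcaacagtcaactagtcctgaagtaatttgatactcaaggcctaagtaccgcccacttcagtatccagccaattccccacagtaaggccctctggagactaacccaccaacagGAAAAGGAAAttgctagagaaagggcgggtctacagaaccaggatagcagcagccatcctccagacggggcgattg
Ifitm3: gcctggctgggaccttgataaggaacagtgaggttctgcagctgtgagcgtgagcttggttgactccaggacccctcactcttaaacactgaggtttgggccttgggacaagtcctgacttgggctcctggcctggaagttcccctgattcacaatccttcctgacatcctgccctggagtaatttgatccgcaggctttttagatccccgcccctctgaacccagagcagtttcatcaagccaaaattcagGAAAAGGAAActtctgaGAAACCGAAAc

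These letters occurred 0 times in the Ifitm1 stretch, 1 time in that of Ifitm2 and 2 times in that of Ifitm3. The Ifitm2 match begins 46 bases before the start, and the Ifitm3 matches begin at bases 3 and 20 counted from the start. Among all 32851 RefSeq promoter windows of 300 bases, 3.44% held GAAANNGAAA. Counted by gene, with a match in any window of the gene, 3.99% of 27025 genes held it. Among 32 genes of a list of interferon-induced genes with such a window, 13 held GAAANNGAAA by the same count. A match is only a match of letters, and no match says only that the letters are not in this window. The RefSeq start used for Ifitm1 lies inside the GENCODE gene, which has 3 annotated transcripts. The GENCODE gene begins upstream of the printed stretch, and that part was not searched.

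Ifitm1 was the member with the widest range of levels. In PGK its CPM in diff2 and diff3 was 23.62 and 70.93 at d0, 43.13 and 59.0 at d4, 19.84 and 36.31 at d10, 38.04 and 49.64 at d19_23, and 15.37 and 10.66 at d27_30. In E14 it was 109.7 and 388.9 at d0, 1.767 and 5.445 at d4, 46.74 and 36.58 at d10, 15.56 and 19.78 at d19_23, and 11.39 and 10.99 at d27_30. In PGK the libraries of d0, d4 and d19_23 overlapped and only the d27_30 pair lay below all the others. In E14 no pair of neighbours in the order d0, d10, d19_23, d27_30, d4 overlapped, and the 2 d4 libraries, with 24 counts in diff2 and 11 in diff3, were the lowest of all 20.

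From d0 to d4 the lines parted for Ifitm1. At d4 over d0 its log2 fold change was 0.05 (SE 0.49) in PGK. In E14 it was -6.28 (SE 0.75), a 77.8-fold lower level at d4. The change of PGK over the change of E14 was 6.40 on the log2 scale (SE 0.93). Within single experiments the E14 change was -5.96 in diff2 and -6.16 in diff3, while that of PGK was 0.87 in diff2 and -0.27 in diff3. The PGK value was 1.09 without the d0 diff3 library and -0.54 without the d0 diff2 library. Without both shallow libraries the E14 value was -5.95, and it ranged from -7.06 to -5.21 as each E14 library was left out.

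At d10 Ifitm1 in E14 lay above its d4 level and below its d0 level in both experiments. At d10 over d4 the log2 fold change was -0.88 (SE 0.50) in PGK and 3.76 (SE 0.69) in E14. The E14 value was 4.73 within diff2 and 2.75 within diff3, 2.94 without the d4 diff2 library and 4.55 without the d4 diff3 library. At d19_23 over d10 it was 0.63 (SE 0.50) in PGK and -1.27 (SE 0.58) in E14. At d27_30 over d19_23 it was -1.74 (SE 0.51) in PGK, a 3.33-fold lower level, and -0.65 (SE 0.57) in E14. At the last stage the means were 13.02 ± 3.33 CPM in PGK and 11.19 ± 0.284 CPM in E14 at d27_30 (SD, n = 2 each). The log2 fold change at d27_30 over d0 was -1.94 (SE 0.51) in PGK and -4.44 (SE 0.65) in E14. Both values differed between the experiments. Within diff2 the change was -0.62 in PGK and -3.27 in E14, and within diff3 it was -2.73 in PGK and -5.14 in E14. Leaving out the d0 diff3 library gave -0.93 in PGK and -3.34 in E14, and leaving out the E14 d0 diff2 library gave -5.07.

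**Figure D1:**
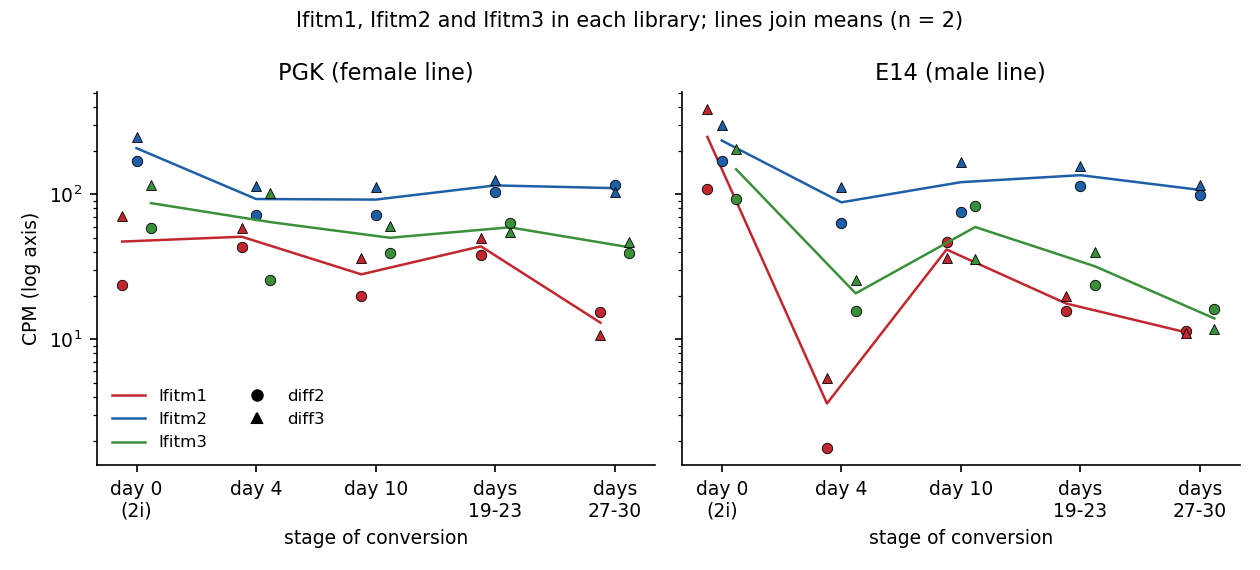
CPM of Ifitm1, Ifitm2 and Ifitm3 (log axis) at each stage of conversion in PGK (left) and E14 (right); circles are diff2 libraries, triangles diff3 libraries, and lines join the means of the 2 libraries. The d4 points of Ifitm1 in E14, at 1.767 and 5.445 CPM, lie below every other point of the plot.

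Ifitm2 had the steadiest levels. In PGK its CPM in diff2 and diff3 was 169.3 and 247.7 at d0, 72.17 and 113.8 at d4, 71.74 and 112.5 at d10, 104.3 and 126.5 at d19_23, and 116.6 and 104.4 at d27_30. In E14 it was 169.2 and 301.8 at d0, 63.55 and 112.9 at d4, 75.85 and 167.1 at d10, 115.2 and 156.5 at d19_23, and 99.22 and 115.5 at d27_30. In both lines both d0 libraries lay above every library of the later stages, and the libraries of neighbouring later stages in the order of their means overlapped. At d4 over d0 its log2 fold change was -1.23 (SE 0.31) in PGK and -1.38 (SE 0.47) in E14, and the difference between these changes was 0.19 (SE 0.59). At d27_30 over d0 it was -1.0 (SE 0.31) in PGK and -1.12 (SE 0.47) in E14. After d4 no step between consecutive stages exceeded 0.50 in either line.

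Ifitm3 stood between the other two. In PGK its CPM in diff2 and diff3 was 58.69 and 115.6 at d0, 25.81 and 103.0 at d4, 39.59 and 60.83 at d10, 63.16 and 55.44 at d19_23, and 39.3 and 47.08 at d27_30. In E14 it was 93.54 and 204.9 at d0, 15.76 and 25.74 at d4, 83.08 and 36.04 at d10, 23.83 and 40.02 at d19_23, and 16.1 and 11.76 at d27_30. PGK stages overlapped with their neighbours in the order of the means at every step, and the 2 PGK libraries of d4 differed 3.99-fold. E14 libraries of d0 lay above all later ones. At d4 over d0 the log2 fold change was -0.49 (SE 0.55) in PGK and -2.81 (SE 0.57) in E14, a 7.03-fold lower level in E14, and the difference between these changes was 2.37 (SE 0.83). The PGK value was 0.23 without the d4 diff2 library, 0.12 without the d0 diff3 library and -1.81 without the d4 diff3 library, and without the last of these the difference was 1.01. At d10 over d4 it was -0.39 in PGK and 1.52 (SE 0.54) in E14. The E14 value at that step was 2.40 within diff2 and 0.49 within diff3. At d27_30 over d0 it was -1.09 (SE 0.55) in PGK and -3.40 (SE 0.57) in E14.

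**Figure D2:**
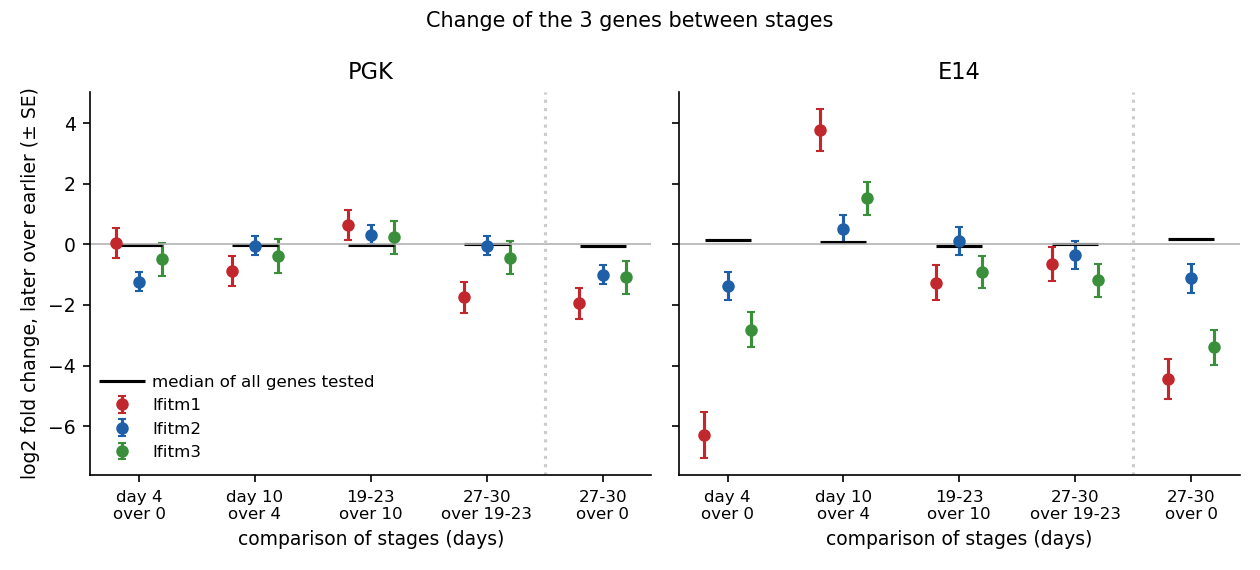
Log2 fold change (± SE, edgeR, n = 2 libraries a group) of the 3 genes between consecutive stages and, right of the dotted line, at d27_30 over d0, in PGK (left) and E14 (right); black bars are the median of all genes tested. In E14 the first step runs from -1.38 for Ifitm2 to -6.28 for Ifitm1, while in PGK it runs from 0.05 for Ifitm1 to -1.23 for Ifitm2.

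The members were also counted beside all genes by whether their groups lay apart. A gene was counted when both libraries of a group lay outside the range of the other group and the means were at least 2-fold apart. At d4 over d0, 1 of the 3 members (Ifitm2) was lower by this count in PGK, as were 14.8% of all genes tested. In E14 all 3 were lower, against 13.3% of all genes. At d10 over d4 none of the 3 was set apart in PGK, where 9.43% of genes were higher and 8.36% lower. In E14 Ifitm1 and Ifitm3 were higher, against 13.9% of genes. At d19_23 over d10 none was set apart in PGK, against 3.87% of genes higher and 3.7% lower, and in E14 Ifitm1 was lower, against 5.81%. At d27_30 over d19_23 Ifitm1 was lower in PGK, against 4.9%, and Ifitm3 was lower in E14, against 4.0%. Over the whole course, at d27_30 over d0, Ifitm1 and Ifitm3 were lower in PGK, against 18.7%, and all 3 were lower in E14, against 12.9%. At d27_30 over d4 Ifitm1 was lower in PGK, against 11.7%, and higher in E14, against 16.0%. Because the members were chosen with these values known, nothing is read from the counts.

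The lines were also set side by side at each stage. For Ifitm1 the log2 fold change of PGK over E14 was -2.30 (SE 0.60) at d0, 4.10 (SE 0.71) at d4, -0.57 at d10, 1.34 (SE 0.58) at d19_23 and 0.25 at d27_30. Its order at d0 was thus opposite to that at d4, when PGK had a 17.1-fold higher level. Leaving out each library moved the d4 value between 3.23 and 4.88, and without the shallow E14 d0 library the d0 value was -1.17. For Ifitm3 the value was -0.69 at d0, 1.68 (SE 0.60) at d4, -0.23 at d10, 0.92 at d19_23 and 1.66 (SE 0.59) at d27_30. Its d4 value ranged from 0.32, without the PGK d4 diff3 library, to 2.35 as each library was left out. For Ifitm2 the 5 values lay between -0.44 and 0.09 (SE 0.42 at each stage). As each library was left out, its value ranged from -0.3 to 0.59 at d4 and from -0.92 to 0.33 at d10. By the count of groups set apart, Ifitm1 was lower in PGK at d0, against 5.26% of genes, and Ifitm1 and Ifitm3 were higher at d4, against 12.3%. None was set apart at d10, against 5.17% of genes higher and 5.07% lower. Ifitm1 was higher at d19_23, against 4.64%, and Ifitm3 at d27_30, against 2.59%.

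The 2 experiments differed for all 3 genes. The diff3 library was the higher one for Ifitm1 in 7 of 10 groups, for Ifitm2 in 9 of 10 and for Ifitm3 in 7 of 10. The widest gaps were 3.99-fold for Ifitm3 in PGK at d4 and 3.54-fold for Ifitm1 in E14 at d0. Diff2 and diff3 at d0, d4 and d10 also differ in that only the diff2 titles carry a library code. In a fit with a term for the code, the log2 fold change of Ifitm1 at d4 over d0 was 0.22 in PGK and -6.11 in E14. That of Ifitm3 was -0.68 in PGK and -2.80 in E14. No d19_23 or d27_30 title carries a code, so code and stage are partly mixed when these groups meet an earlier one. With the term, the median log2 fold change of all genes at d27_30 over d0 was 0.42 in E14, in place of 0.19. In PGK it was -0.01, in place of -0.06.

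Between genes, levels are compared per kb of transcript, with median annotated lengths of 736 bases for Ifitm1, 655 for Ifitm2 and 678 for Ifitm3. Of the summed CPM per kb of the 3 genes, Ifitm2 had the greatest mean share in each of the 10 groups. In E14 at d0 this did not hold in every library, since Ifitm1 had 40.9% and Ifitm2 35.7% in 1 of them, and by coding length the means there were 43.2% for Ifitm1 and 34.7% for Ifitm2. In PGK the mean share of Ifitm1 was 11.7% at d0, 24.0% at d4, 14.9% at d10, 18.3% at d19_23 and 7.04% at d27_30. In E14 it was 34.1% at d0, 2.68% at d4, 17.5% at d10, 8.69% at d19_23 and 7.64% at d27_30. At d4 the 2 libraries gave 19.8% and 28.3% in PGK and 1.96% and 3.4% in E14. The share of Ifitm2 in E14 was 82.0% at d27_30 and 41.5% at d0. The mean share of Ifitm3 lay between 24.7% and 29.4% in PGK, where the 2 libraries of d4 gave 18.4% and 37.4%. In E14 its mean share was 24.4% at d0, 18.2% at d4, 27.7% at d10, 16.7% at d19_23 and 10.4% at d27_30, and the 2 libraries of d10 gave 14.8% and 40.6%.

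**Figure D3:**
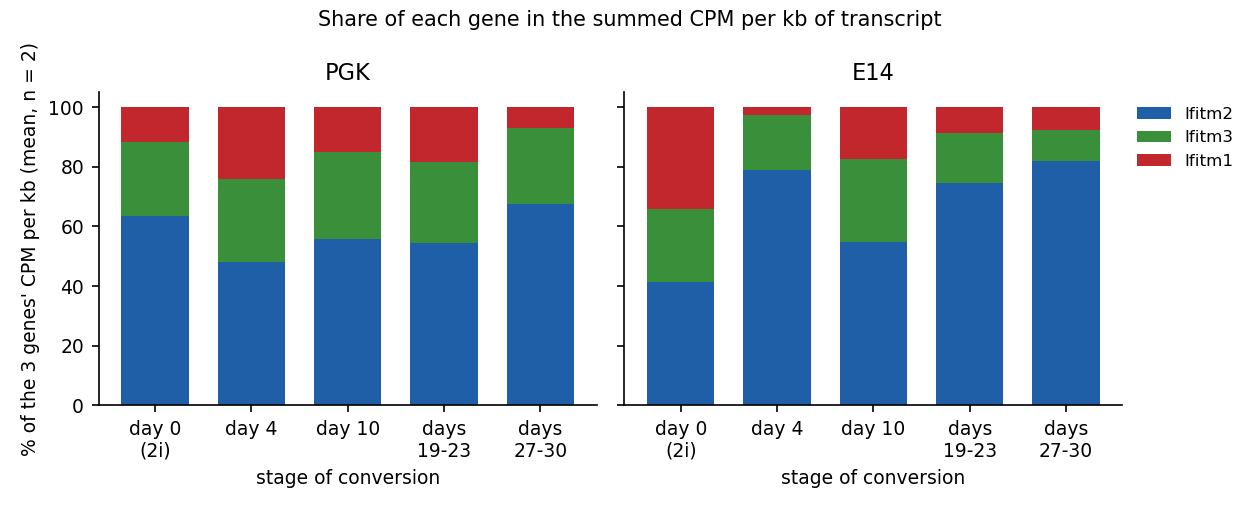
Mean share (%, n = 2 libraries) of Ifitm2, Ifitm3 and Ifitm1 in the 3 genes' summed CPM per kb of transcript at each stage in PGK (left) and E14 (right). Ifitm1 makes up 24.0% of the sum in PGK and 2.68% in E14 at d4.

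The counting of the 3 genes can be affected by near copies. Of the distinct 50-base stretches of their transcripts, 15 of 1056 in Ifitm1, 20 of 606 in Ifitm2 and 35 of 629 in Ifitm3 also occur in another of the 3. The predicted gene Gm45717 overlaps Ifitm2 on the same strand and shares 36.1% of its stretches, so reads of both cannot all be told apart in the Ifitm2 count. Ifitm2 also shares 14.9% of its stretches with Gm11951, 12.4% with Gm8865, 7.76% with Gm45308, 5.61% with Gm2840 and 2.81% with Gm45432. Gm7676 shares 3.69% of those of Ifitm1 and 4.61% of those of Ifitm3. These predicted genes have no entry in the deposited counts, and how the authors' counting treated such reads is not given in the sources used here.

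The other genes of the family had low levels. Ifitm5, known from bone-forming cells, averaged at most 4.19 CPM (E14 at d0), Ifitm7 at most 2.39 CPM, Ifitm10 at most 0.218 CPM and Ifitm6 at most 0.215 CPM. Of 11 listed genes of the Ifitm and dispanin family beside the members, 10 are in the tables and 6 were tested. At d4 over d0 edgeR called 0 in either line. Over all genes 8.35% were called higher and 6.44% lower in PGK, and 5.16% and 4.4% in E14. At an unadjusted edgeR p under 0.05 there were 1 in PGK and 3 in E14. The share of all genes at that unadjusted threshold is not given, so nothing is read from these counts. DESeq2 called 1 higher in PGK and 0 in E14. The edgeR count in PGK changed without either d27_30 library. In E14 genes of the family were called in both directions without the d0 diff2 library, when more of all genes were also called in both.

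Genes around the members fell at d4 in E14 in 3 cases. Within 200 kb of the 3 genes, 36 other genes are annotated, 26 are in the tables, and 19 in PGK and 18 in E14 were tested. In E14 at d4 over d0, 3 of 18 fell and 0 rose by edgeR with Benjamini-Hochberg adjustment, where 4.4% of all genes fell and 5.16% rose, and the median log2 fold change of the 18 was -1.50, against 0.15 over all genes. The 3 were Sigirr, an inhibitor of interleukin-1 receptor signalling, Rnh1, the ribonuclease inhibitor, and B4galnt4, a glycosyltransferase. Sigirr averaged 4.64 ± 1.66 CPM at d4 and 54.5 ± 18.9 CPM at d0 (edgeR adjusted p = 0.0161), and Rnh1 45.2 ± 14.3 CPM at d4 and 147 ± 28 CPM at d0 (edgeR adjusted p = 0.0219). In PGK, where 6.44% of all genes fell and 8.35% rose, 1 of 19 fell, Syce1, a part of the synaptonemal complex, with 15.4 ± 9.32 CPM at d4 and 70.2 ± 11.3 CPM at d0 (edgeR adjusted p = 0.0308), and 1 rose, Hras1, a small GTPase (edgeR adjusted p = 0.0430). At d27_30 over d0, 3 of 19 fell in PGK, against 12.0% of all genes, and 6 of 18 in E14, against 4.99%, among them Ano9 in both. Syce1 had 0 counts in both d27_30 libraries of both lines and was called lower in both. EdgeR called 0 neighbours in the difference of the d4 change between lines, where 0.0381% of all genes were called in each direction. Of the neighbours 1 had an unadjusted p under 0.05 and 1 was called by DESeq2. The shares of all genes by these measures are not given, so nothing is read from these counts. The E14 count that fell at d4 was smaller without the d4 diff3 or the d27_30 diff2 library. It was greater without the d0 diff2 library, when some neighbours were also called higher. The count that fell at d27_30 was smaller without either d19_23 or either d27_30 library, and without the d0 diff2 library some neighbours were called higher there. Counts over all genes moved in the same direction in each of these E14 fits. In PGK at d4, no rise was called when any 1 library was left out, and the count that fell was 0 without the d4 diff3 or either d0 library and 2 without the d4 diff2 library.

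**Figure D4:**
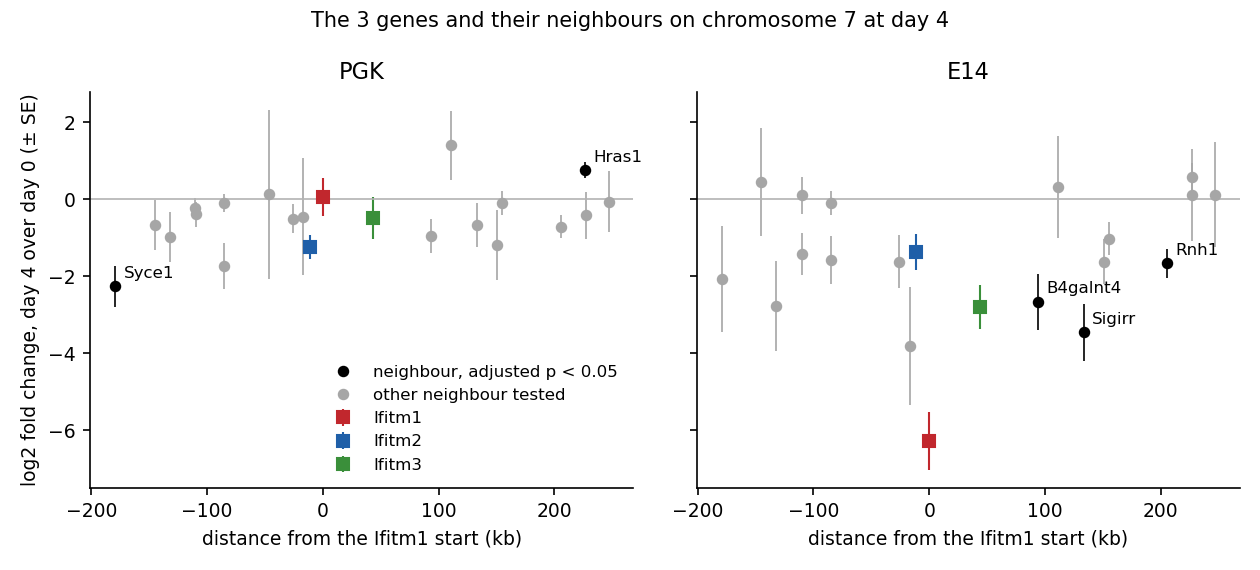
Log2 fold change at d4 over d0 (± SE, edgeR, n = 2 libraries a group) of the 3 genes (squares) and of the tested genes within 200 kb (circles; black where the adjusted p passed 0.05) against the distance in kb from the start of Ifitm1, in PGK (left) and E14 (right). In E14 Sigirr, Rnh1 and B4galnt4 were called lower, at -3.46, -1.66 and -2.66.

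Genes called on the interferon-induced list moved both ways, while the list medians at d27_30 over d0 lay above those of all genes. Of 43 genes on the list, 42 are in the tables and 40 were tested in each line. At d4 over d0, edgeR called 5 higher and 4 lower in PGK, where 8.35% of all genes were called higher and 6.44% lower, and the list's median log2 fold change was 1.07, beside -0.01 over all genes. In E14 it called 2 higher and 4 lower, where 5.16% of all genes were called higher and 4.4% lower, and the median was 0.11, beside 0.15. At d27_30 over d0, 10 rose and 5 fell in PGK, against 13.0% and 12.0% of all genes. In E14 6 rose and 4 fell, against 8.73% and 4.99%. The list's medians at d27_30 over d0 were 1.19 in PGK, beside -0.06, and 1.25 in E14, beside 0.19. At d10 over d4 the median was 0.18 in PGK, beside -0.01, and 1.97 in E14, beside 0.09. At d27_30 over d19_23 it was -0.71 in PGK, beside 0.0, and -0.85 in E14, beside 0.01. EdgeR called 0 genes of the list in PGK over E14 at d4, where 0.14% of all genes were called higher and 0.0254% lower, and 0 in the difference of the d4 change, where 0.0381% of all genes were called in each direction. In each of these comparisons 9 had an unadjusted p under 0.05, and DESeq2 called 2 higher. The share of all genes at that unadjusted threshold is not given, so nothing is read from the 9. With so few calls over all genes, 0 called does not set the list apart. The list's median log2 fold change was 1.16 in PGK over E14 at d4, beside 0.04 over all genes. In the difference of the d4 change it was 0.84, beside -0.08. Counts depended on single libraries. In PGK at d4, 8 were called higher without the diff3 library of d0 or of d4. In E14 at d4, the counts called higher and lower were greater without the d0 diff2 library. The count called higher was smaller without any 1 of the d4, d19_23 or d27_30 libraries, and the count called lower without either d4 library. Counts over all genes moved in the same directions in these fits. At d27_30 in PGK, the count called higher was 6 without the d0 diff2 or either d19_23 library and 5 without the d27_30 diff2 library, and the count called lower was 3 without the d0 diff2 library and 2 without either d27_30 library. In E14 at d27_30, both counts were greater without the d0 diff2 library. The count called higher was smaller without the d19_23 diff3 or either d27_30 library, and the count called lower without either d27_30 library. Counts over all genes again moved in the same directions.

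In PGK at d4, Psmb8, a subunit of the immunoproteasome, averaged 11.3 ± 8.18 CPM at d4 and 0.0873 ± 0.00872 CPM at d0 (log2 fold change 6.82, SE 0.76, edgeR adjusted p = 0.000337). Tap1, which carries peptides to class I molecules, averaged 42.3 ± 11.5 CPM at d4 and 4.27 ± 0.618 CPM at d0 (edgeR adjusted p = 0.000645). Trim25, a ubiquitin ligase of the RIG-I pathway, averaged 90.5 ± 16.5 CPM at d4 and 223 ± 2.07 CPM at d0 in PGK (edgeR adjusted p = 0.00258), and in E14 63.9 ± 16.1 CPM at d4 and 224 ± 82.3 CPM at d0 (edgeR adjusted p = 0.0192). Oas1a, which makes the activator of RNase L, fell in both lines, to 2.79 ± 0.912 CPM at d4 against 27.8 ± 1.37 CPM at d0 in PGK (edgeR adjusted p = 0.00415) and to 0.295 ± 0.417 CPM at d4 against 16.9 ± 1.23 CPM at d0 in E14 (edgeR adjusted p = 0.0220). In E14 Xaf1, a gene linked to cell death, averaged 0.147 ± 0.208 CPM at d4 and 152 ± 57.5 CPM at d0 (edgeR adjusted p = 0.000546), and Ifit2 averaged 15.5 ± 10.3 CPM at d4 and had 0 counts at d0 (edgeR adjusted p = 0.00528). The E14 call of Trim25 ended without either d4 library, and that of Oas1a also without any 1 of the d19_23 or d27_30 libraries.

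Of 9 genes for interferon receptors and their kinases and regulators, 1 rose and 2 fell in PGK at d4 over d0, against 8.35% and 6.44% of all genes, and 1 fell in E14, against 4.4%. Socs3, a feedback inhibitor of cytokine signalling, fell in both, to 7.73 ± 6.96 CPM at d4 against 171 ± 114 CPM at d0 in PGK (edgeR adjusted p = 0.00352) and to 13.2 ± 11.5 CPM at d4 against 188 ± 100 CPM at d0 in E14 (edgeR adjusted p = 0.0151). Ifngr2, a chain of the interferon gamma receptor, rose in PGK and Ifnar2, a chain of the type I receptor, fell. The call of Ifngr2 ended without either d0 or the d4 diff3 library, and that of Ifnar2 without the d0 diff2, either d4 or either d19_23 library. The E14 call of Socs3 ended without the d4 diff2 library. Without the d0 diff2 library more of the 9 genes were called in E14 in each direction, and so were more of all genes. Without the d0 diff3 library more of the 9 were called lower.

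Of 10 primordial germ cell genes tested in PGK, 1 rose and 6 fell at d4 over d0, against 8.35% and 6.44% of all genes, and the median log2 fold change was -3.21, beside -0.01 over all genes. Of 9 tested in E14, 5 fell and 0 rose, against 4.4% and 5.16% of all genes, with a median of -4.57. The 1 that rose in PGK was Ddx4, an RNA helicase of germ cells, named after its value was seen. It averaged 50.3 ± 11.9 CPM at d4 in PGK. In E14 it averaged 52.1 ± 3.25 CPM at d4 and 13.4 ± 1.56 CPM at d0, and edgeR did not call this rise. Kit, the receptor of stem cell factor, averaged 24.1 ± 7.08 CPM at d4 and 359 ± 77.3 CPM at d0 in PGK (edgeR adjusted p = 0.000167), and 14.1 ± 5.96 CPM at d4 and 469 ± 182 CPM at d0 in E14 (edgeR adjusted p = 0.000546). Alpl, the alkaline phosphatase used to stain germ cells, averaged 26.1 ± 20.8 CPM at d4 and 413 ± 2.21 CPM at d0 in PGK (edgeR adjusted p = 0.000784), and 20.0 ± 1.75 CPM at d4 and 565 ± 30.5 CPM at d0 in E14 (edgeR adjusted p = 0.000898). Tfap2c, a transcription factor of germ cell specification, fell in E14 and was called higher in PGK than in E14 at d4, with 16.4 ± 0.805 CPM in PGK and 0.258 ± 0.364 CPM in E14 (edgeR adjusted p = 0.0247). That call ended without either E14 d4 library, and in the difference of the d4 change Tfap2c had an edgeR adjusted p = 0.0747. At d27_30 over d0, 7 of 10 fell and 0 rose in PGK, against 12.0% and 13.0% of all genes. In E14 6 of 9 fell and 0 rose, against 4.99% and 8.73%. Fewer fell in E14 without the E14 d27_30 diff3 library. The list medians were -4.69 in PGK and -4.67 in E14, beside -0.06 and 0.19 over all genes. Several genes of the germ cell list are also naive stem cell genes, and their naive role and germ cell role cannot be told apart here.

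Of 11 BMP pathway genes, 2 rose in PGK, against 8.35% of all genes, and 1 in E14, against 5.16%, at d4 over d0. Over the whole course, at d27_30 over d0, 5 rose in PGK, against 13.0% of all genes, and 4 in E14, against 8.73%. In each of these 0 fell. Bmp2, a ligand, averaged 52.8 ± 0.842 CPM at d27_30 and 0.128 ± 0.0487 CPM at d0 in PGK (edgeR adjusted p = 0.000594), and 46.5 ± 7.86 CPM at d27_30 and 0.224 ± 0.316 CPM at d0 in E14 (edgeR adjusted p = 0.00118). Id1, a target of BMP signals, averaged 28.1 ± 6.12 CPM at d27_30 and 1.09 ± 0.414 CPM at d0 in PGK (edgeR adjusted p = 0.000302), and 42.1 ± 15.9 CPM at d27_30 and 1.19 ± 0.847 CPM at d0 in E14 (edgeR adjusted p = 0.00419). The PGK count at d4 was 4 without the d4 diff2 library and 1 without the d0 diff2, the d4 diff3 or any 1 of the d19_23 or d27_30 libraries. The E14 count at d4 was greater without the d0 diff2 library, as was that over all genes. The 1 E14 call at d4 was lost without the d0 diff3, the d4 diff3 or any 1 of the d19_23 or d27_30 libraries. With the experiment as a replicate block the E14 count at d4 was 0. At d27_30 the counts were 3 in PGK and 2 in E14 without either d27_30 library. Of 5 genes whose human proteins modify or bind IFITM3, 2 rose in PGK and 1 in E14 at d4, against 8.35% and 5.16% of all genes. Setd7, a lysine methyltransferase, rose in both lines at d4, to 150 ± 59.2 CPM at d4 against 25.9 ± 3.07 CPM at d0 in PGK (edgeR adjusted p = 0.000627) and to 304 ± 145 CPM at d4 against 16.1 ± 6.96 CPM at d0 in E14 (edgeR adjusted p = 0.000703). Nedd4, a ubiquitin ligase, rose in PGK (edgeR adjusted p = 0.0278), a call that ended without either d0, the d4 diff3 or any 1 of the d19_23 or d27_30 libraries.

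**Figure D5:**
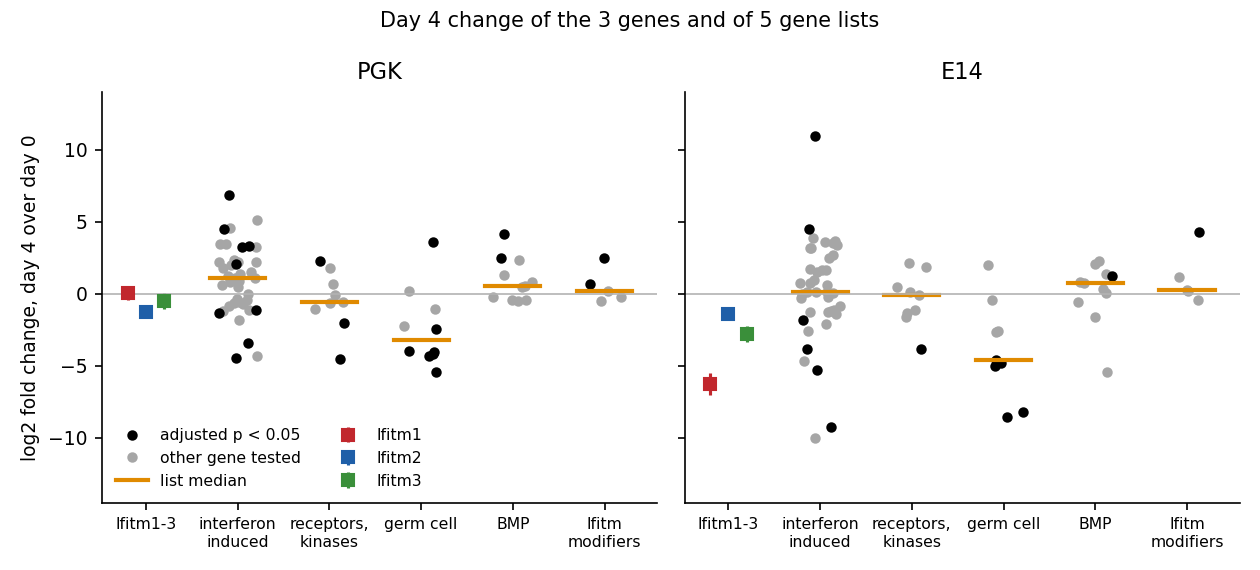
Log2 fold change at d4 over d0 of the 3 genes (squares, ± SE) and of the tested genes of 5 lists (circles; black where the edgeR adjusted p passed 0.05; orange bars are list medians) in PGK (left) and E14 (right). The germ cell list has medians of -3.21 in PGK and -4.57 in E14; genes with 0 counts in a group, such as Ifit2 in E14, have fitted values that depend on the prior count.

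By the root-mean-square difference of centred log2(CPM + 1) over the 20 libraries among 14531 genes, the genes most like Ifitm1 were Hspb1 (0.83), Baiap2 (0.85), Ngfr (0.85), Ifitm3 (0.86) and Exoc6b (0.89), where Ifitm1 itself varied by 1.5. Taken the other way, Ifitm1 ranked 467 by likeness to Ifitm3. By likeness to Ifitm1, Ifitm3 ranked 682 in PGK alone and 44 in E14 alone. Hspb1, a small heat shock protein, averaged 8.64 ± 1.01 CPM at d4 and 138 ± 99.8 CPM at d0 in E14. Among those most like Ifitm3, which varied by 1.0, were Exoc6b (0.55), Cdkn1a (0.62), Abhd4 (0.63) and Pros1 (0.63). For Ifitm2, which varied by 0.56, they were Twf1 (0.24), Cept1 (0.25), Tor1aip2 (0.25), Cggbp1 (0.26) and Wtap (0.27). With a pseudocount of 5, of the 5 genes 5 were the same for Ifitm1, 4 for Ifitm2 and 4 for Ifitm3, whereas with PGK alone none was.

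Markers of other cell types moved over the same stages, and their part in the members' values was not tested. The 8 fibroblast markers summed to 8.84 to 10.5 CPM at d4 and 7.76 to 23.1 CPM at d0 in PGK, and to 17.6 to 21.3 CPM at d4 and 0 to 17.8 CPM at d0 in E14. At d27_30 they summed to 144 to 186 CPM in PGK and 80.8 to 263 CPM in E14. At d4 Lum was at 0 in PGK, and Postn and Lum were at 0 in E14. The 5 endothelial markers summed to 6.44 to 24.3 CPM at d4 and 86.5 to 105 CPM at d0 in PGK, and to 0 to 4.57 CPM at d4 and 61.3 to 104 CPM at d0 in E14, with Emcn at 0 in all 4 of these groups and Cdh5 also at 0 in both E14 groups. The 5 endoderm markers summed to 9.96 to 42.8 CPM at d4 and 8.6 to 14.9 CPM at d0 in PGK, and to 2.87 to 9.4 CPM at d4 and 1.78 to 5.74 CPM at d0 in E14. At d27_30 they summed to 232 to 238 CPM in PGK and 220 to 289 CPM in E14. The 4 blood markers in the tables summed to at most 37 CPM in any library, with Csf1r at 0 at d0 and d4 in both lines.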

How the data were processed

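RNA of 20 libraries was sequenced, and 2 tables of raw counts per gene, 1 per line, were deposited by the authors. Per the submitters' processing notes, CASAVA 1.8.2, Cuffdiff and DESeq2 were used with GRCm38/mm10. No label or header used here names the aligner, the gene annotation or the use of strand in counting. The deposited variance-stabilized log2 values served 1 alternative.

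CPM was computed from the counts and the library totals. Counts were fitted with edgeR 4.0.16 (R 4.3.3; TMM, filterByExpr with a minimum count of 10, robust quasi-likelihood), each line on its own (15284 genes in PGK, 14501 in E14) and all 20 libraries together for PGK over E14 (15732 genes), with Benjamini-Hochberg adjustment over all genes and a threshold of 0.05. The 3 genes and all lists were chosen with earlier results of these data known, so the 3 genes have no p-values and the lists' directions are not independent evidence. From each list, up to 4 genes with the smallest adjusted p were named, and up to 5 neighbours; 1 gene among those most like Ifitm3 is not reported here. The method was tested on simulated data. The simulated spread between replicates was set below that of these data, so this test checks the code only.

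The labels give each experiment a name, which pairs the libraries of a line in origin; deviations of same-experiment libraries correlated at -0.261 to 0.575 over 20 pairs of groups, with 9 over 0.1. Across the lines they correlated at 0.308 at d0, 0.56 at d4, 0.491 at d10, 0.0466 at d19_23 and -0.127 at d27_30. Replicates within groups correlated at 0.877 to 0.988 and none were identical. Whether the 2 experiments used separate cultures beyond their name is not stated, so p-values measure the spread between these samples. Alternatives were RLE size factors, no filter, DESeq2 1.42.0, the experiment as a block, a term for the library code, a joint fit, limma 3.58.1 on the log2 values, and leaving out each library; leaving out both shallow libraries and taking each experiment alone were chosen after seeing the data. Sequences are from RefSeq (GRCm38.p6), where all 3 genes matched by symbol, and gene positions from GENCODE M21.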

Additional observations from a re-analysis of the deposited data

Results flagged for a closer look

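For 4 steps the changes of mean log2 CPM had opposite signs in the 2 lines, in both experiments of each line, and the difference at these steps was not tested. For Ifitm1 at d10 over d4 the change was -0.91 in PGK and 3.74 in E14. For Ifitm1 at d19_23 over d10 it was 0.7 in PGK and -1.24 in E14. For Ifitm1 at d27_30 over d4 it was -1.98 in PGK and 1.85 in E14. For Ifitm2 at d10 over d4 it was -0.02 in PGK and 0.42 in E14. The edgeR log2 fold change of Ifitm2 there was -0.04 (SE 0.31) in PGK and 0.5 (SE 0.47) in E14. The PGK value changed sign as each library was left out, from -0.42 to 0.34.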

How the results depend on the processing

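Of 1248 alternative values of the 3 genes' log2 fold changes, 1234 moved by less than the spread between replicates and 14 by more. With 2 libraries a group, omitting a library or taking 1 experiment can hardly exceed this spread. The counts thus do not show stability. The value of Ifitm3 in PGK at d4 over d0, for example, ran from -1.81 to 0.23 as each library was left out. Among the comparisons at d4 over d0, at d27_30 over d0 and of PGK over E14 at d4, those 14 hold 2, both at d27_30 over d0 in PGK within diff2 alone, where Ifitm1 was -0.62 in place of -1.94 and Ifitm2 -0.54 in place of -1.0; the cause was not tested. With the experiment as a replicate block, Ifitm1 at d4 over d0 was -6.16 in E14 and 0.15 in PGK, Ifitm3 in E14 was -2.8, and Ifitm1 in PGK over E14 at d4 was 4.08. The block moved 1 of the counts of all genes printed here by over 1.5 times, the genes called higher in PGK over E14 at d4, to 40 from 22, and it ended the 1 E14 call among BMP genes at d4.

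Counts of calls over all genes depended more on the processing. At d4 over d0 in E14, 748 genes were called higher and 638 lower; DESeq2 called 1503 and 1295, the joint fit 1358 and 1065, and leaving out each library gave 292 to 3147 and 182 to 1370, and without both shallow libraries 351 were lower. In PGK, 1276 were higher and 984 lower; the library code term gave 2004 and 1694, DESeq2 1634 lower, limma 1624 lower, the joint fit 638 lower, and leaving out the d4 diff3 library 477 lower. At d27_30 over d0 in E14, 1266 were higher and 724 lower; DESeq2 called 2107 and 1393, the joint fit 1202 lower, and leaving out each library gave 505 to 3565 and 140 to 1376. In PGK the 1839 called lower were 833 without the d27_30 diff3 library. In PGK over E14 at d4, 22 were higher and 4 lower; DESeq2 called 168 and 52, the library code term 59 and 7, no filter 67 higher, and fits without both shallow libraries 12 higher. Leaving out each library gave 3 to 50 higher and 3 to 7 lower.

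For the interferon-induced genes called higher, at d4 in PGK (5) DESeq2 called 13 and no filter or the library code term 9; at d4 in E14 (2) DESeq2 or the joint fit called 5 and limma 4; at d27_30 in PGK (10) DESeq2 called 16 and the joint fit 6; and at d27_30 in E14 (6) DESeq2, the joint fit or the code term called 10, while those called lower there (4) were 7 by DESeq2 or the joint fit. Neighbours called lower at d4 in E14 (3) were 7 by DESeq2 and 1 without both shallow libraries; at d4 in PGK (1) they were 4 with the code term, 2 by DESeq2, limma or no filter and 0 in the joint fit, which with no filter also ended the call of Hras1; and at d27_30 in PGK (3) they were 6 by DESeq2 and 5 by limma. Receptor and kinase genes called in PGK at d4 (1 higher, 2 lower) were 0 and 1 in the joint fit, and in E14 1 was higher by DESeq2 or the joint fit, and 2 were lower, in place of 1, with the code term or without both shallow libraries. BMP genes called higher at d4 in PGK (2) were 4 with the code term and 1 with limma or no filter; in E14 (1) they were 2 by DESeq2 and 0 without both shallow libraries, and at d27_30 in E14 (4) they were 7 without them. The joint fit called 1 family gene higher at d4 in E14 and 1, in place of 2, of the genes acting on IFITM3 in PGK; DESeq2 called 1 germ cell gene higher at d4 in E14.

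By coding length in place of transcript length, the share of Ifitm1 at d4 was 31.8% in PGK and 3.97% in E14. Of the genes most like each member, none for Ifitm1, 2 for Ifitm2 and none for Ifitm3 were the same with E14 alone. The shallow E14 libraries limit low levels at d0 and d4.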
